A study of Mus musculus with 12 samples.

Results

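Leukemia cells carrying the MLL-ENL fusion were compared with normal bone marrow across all genes that passed a count filter, to describe which functions and gene families separated them beyond the lineage markers. The leukemia group (ME) comprised 3 libraries of sorted CD45.2-positive bone marrow cells with the genotype label MLL-ENL, and the normal group (WT) 3 libraries of CD45.2-positive bone marrow cells with no fusion in the label. A further 3 libraries of MLL-AF9 cells (MA9) and 3 of BRD9-NUTM1 cells (BN1) served for direct comparisons between leukemias. All 12 libraries came from C57BL/6 mice, no treatment was given, and polyadenylated RNA was sequenced. The labels give no age, no promoter or vector that drives the fusion, and do not say whether a leukemia was a single clone. They also do not tie libraries to separate animals, so the p-values rest on the spread among libraries of a group, which may be technical. Of 35976 genes in the table, 15332 (42.6%) were tested. LOC101056014 and Lars2, raised in a single ME library, were left out.

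MLL (gene Kmt2a in the mouse) is a histone H3 lysine 4 methyltransferase that keeps homeobox genes active in blood progenitors. In the MLL-ENL fusion its amino-terminal part is joined to ENL (gene Mllt1), a reader of acylated histones that belongs to the machinery of transcription elongation, and the fusion is known for holding posterior HoxA genes and their cofactor Meis1 on in myeloid progenitors. Normal marrow is a mixture of granulocytes, monocytes, red cell precursors, lymphocytes and rare progenitors. CD45, whose allele CD45.2 was used for sorting, is a phosphatase of all leukocytes.

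Sequence words that bear on groups described below were looked up in RefSeq promoters of GRCm38.p6, windows of 250 bases before and 50 bases after a gene's start. All words were searched on both strands. Results for 4 of them are given here, and those for an inverted CCAAT word and a sterol word under other observations. Of the 4, the core of the interferon-stimulated response element was GAAA, any 2 bases, GAAA, and the E-box was CACGTG. The E2F site was TTTCCCGC and the cell cycle homology region TTTGAA. Among these 4, matches of different words overlapped in 13 promoters for the interferon and cell cycle words, in 5 for the interferon and E2F words and in 1 for the interferon word and the E-box. The interferon word was found in 29 of 59 matched promoters of interferon-induced genes (49.2%), against 3.11% of the 11231 tested genes with a promoter and 3.49% of all 27025 promoters. The cell cycle word was found in 37 of 58 promoters of mitosis genes (63.8%, against 12.8% of tested genes and 18.1% of all promoters). The E2F word was found in 9 of 48 promoters of DNA replication genes (18.8%, against 1.93% and 1.11%). The E-box was found in 14 of 57 promoters of nucleolar ribosome biogenesis genes (24.6%, against 9.83% and 7.24%). A match is a description of the letters, not a binding site.

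The following promoters were chosen after the values were seen, because they belong to members of these groups that moved apart: the antiviral genes Rsad2 and Ifit3, which fell in ME, the nucleolar helicase Dhx33 and the origin recognition subunit Orc3, which rose, and the mitotic genes Cdc20 and Ube2c, which fell. Each is the 200 bases before the annotated start, written in the direction of the gene, with matches of the word named above for its group in capitals.
Rsad2 promoter, chr12:26456453-26456652, minus strand: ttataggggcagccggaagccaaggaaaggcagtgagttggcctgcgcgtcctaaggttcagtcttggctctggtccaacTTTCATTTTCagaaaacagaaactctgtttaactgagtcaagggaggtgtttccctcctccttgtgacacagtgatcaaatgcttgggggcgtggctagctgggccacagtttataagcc
Ifit3 promoter, chr19:34583329-34583528, plus strand: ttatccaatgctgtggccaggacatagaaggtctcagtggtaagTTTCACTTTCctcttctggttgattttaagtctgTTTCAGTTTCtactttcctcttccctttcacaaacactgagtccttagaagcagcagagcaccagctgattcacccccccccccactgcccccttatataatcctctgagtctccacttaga
Dhx33 promoter, chr11:71004433-71004632, minus strand: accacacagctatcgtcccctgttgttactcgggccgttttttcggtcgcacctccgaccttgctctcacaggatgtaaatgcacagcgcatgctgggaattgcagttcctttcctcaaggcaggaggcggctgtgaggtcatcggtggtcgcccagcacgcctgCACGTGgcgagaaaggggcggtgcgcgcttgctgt
Orc3 promoter, chr4:34614943-34615142, minus strand: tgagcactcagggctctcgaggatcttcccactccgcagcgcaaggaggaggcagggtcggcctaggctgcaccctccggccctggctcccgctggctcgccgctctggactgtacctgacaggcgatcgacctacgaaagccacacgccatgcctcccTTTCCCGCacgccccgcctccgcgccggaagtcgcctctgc
Cdc20 promoter, chr4:118437344-118437543, minus strand: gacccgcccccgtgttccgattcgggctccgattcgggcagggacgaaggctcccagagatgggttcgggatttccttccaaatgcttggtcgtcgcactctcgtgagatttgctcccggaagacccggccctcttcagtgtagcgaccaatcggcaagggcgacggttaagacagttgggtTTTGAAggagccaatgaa
Ube2c promoter, chr2:164769729-164769928, plus strand: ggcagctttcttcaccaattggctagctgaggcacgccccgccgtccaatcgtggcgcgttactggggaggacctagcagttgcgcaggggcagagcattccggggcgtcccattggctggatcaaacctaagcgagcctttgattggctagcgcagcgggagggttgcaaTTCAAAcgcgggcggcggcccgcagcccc
The interferon word begins 120 bases before the start in Rsad2, and 156 and 122 bases before it in Ifit3, in each case read from the opposite strand. The cell cycle word lies 18 bases before the start in Cdc20 and 29 bases before it in Ube2c. Promoter windows of some members that moved the other way held the same words. The interferon word was in those of Ifih1, Oas1a, Oas1g and Gbp3, which rose. The E2F word was in that of Cdc6, which fell, and the cell cycle word in that of Bub3, which rose.

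Library totals ran from 18292636 to 25732049 counts. Levels are given in CPM, counts per 1000000 counts of a scaled library, and log2 fold changes (log2FC, ME over the other group) are edgeR estimates ± SE. A gene was called where its p, adjusted by the Benjamini-Hochberg method, was under 0.05, and the genes said to rise or fall passed this threshold. A fold against a group without counts is a lower bound that puts 3 counts in that group, and a ratio against 1 to 3 counts carries its 95% interval. Bounds and intervals cover counting error only. Where leaving out 1 library moved a fold given as a log2FC by over 1.5 times, the log2FC without that library follows it. This is not given for bounds and ratios, which rest on 3 or fewer counts in the lower group and can hinge on 1 library. Correlations of log2(CPM + 1) across genes were 0.996 to 0.998 between ME libraries and 0.845 to 0.852 between ME and WT libraries. The normal marrow libraries held red cell, early B cell and T cell RNA that the leukemia libraries nearly lacked. Late neutrophil RNA was lower in ME but still plentiful. The summed level of 12 mature B and plasma cell markers was 999.9 to 1117 CPM in WT and 544.1 to 568.7 CPM in ME, with 11 members lower and 1 higher. The summed level of 28 erythroid markers was 36730 to 47100 CPM in WT and 130.3 to 150.1 CPM in ME, and 12 of the 28 had no count in ME. For 20 early B cell markers it was 3179 to 3409 against 56.6 to 64.1 CPM, for 15 T cell markers 258 to 276 against 6.9 to 7.6 CPM, and for 26 mature neutrophil markers 73000 to 76520 against 16960 to 19420 CPM. For 14 primary granule markers the order was turned, with 4165 to 4310 CPM in WT and 21530 to 22620 CPM in ME. For 12 stem cell markers it was 179 to 182 CPM in WT and 352 to 387 CPM in ME, although 8 of them fell and only Kit, Cdkn1c and Meg3 rose. For 25 monocyte and macrophage markers it was 12020 to 12360 against 5699 to 5977 CPM. The sums over NK cell (253 to 266 against 5.98 to 7.93 CPM), dendritic cell (987 to 1058 against 184 to 203 CPM) and megakaryocyte markers (159 to 176 against 23.5 to 26.2 CPM) were lower in ME. In bulk RNA, fewer cells of a type and less RNA per cell cannot be told apart. These marker sums differed between the same libraries in which every gene group was compared, and their part in the results was not tested.

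Kmt2a itself gave 159.7, 158 and 161 CPM in the WT libraries and 116, 125 and 95.5 CPM in the ME libraries (log2FC -0.51 ± 0.07, adjusted p = 5.1e-07). Mllt1 gave 49.6, 51.7 and 52.9 CPM in WT and 71.1, 75.8 and 76.1 CPM in ME (log2FC 0.53 ± 0.06, adjusted p = 1.5e-08). The labels do not say whether the construct holds human or mouse sequence, so these counts do not measure the fusion. Ptprc, the gene of CD45, was lower in the leukemia, at 323 ± 9.15 against 999 ± 78.9 CPM (mean ± SD, n = 3, as in all such values below).

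Of the 15332 genes, 12146 (79.2%) were called in ME against WT, 5937 higher (38.7%) and 6209 lower (40.5%). At least 2-fold changes were seen in 5780 genes (37.7%), of which 2105 were higher (13.7%) and 3675 lower (24%). The 3 ME and 3 WT libraries did not overlap for 12222 genes (79.7%). Gene groups are read against these shares. A gene that passed the filter only through the group in which it was high had to differ, and the counts below describe the tested members of each group. Remarks below that libraries of the compared groups did not overlap are descriptions and lend no support. Most tested genes were so placed, and many named genes were picked for the size of their change.

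**Figure D1:**
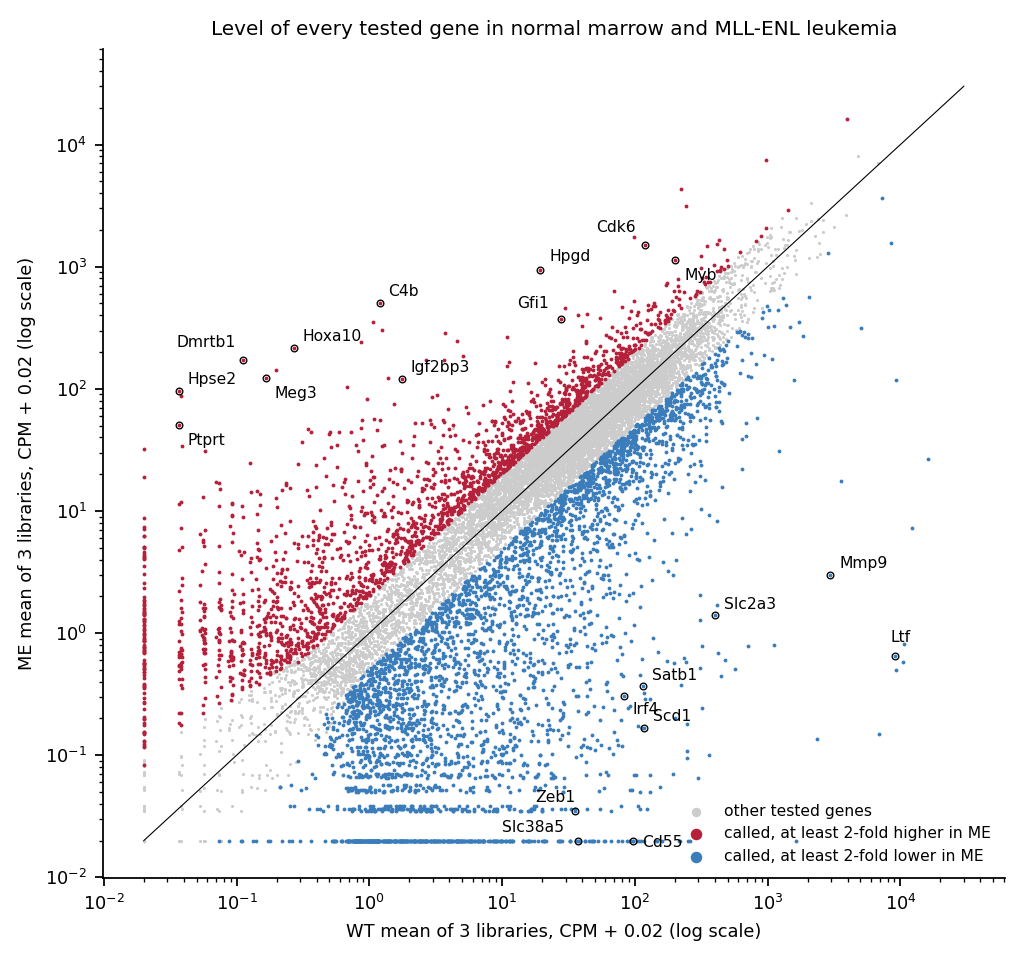
Mean level of each of the 15332 tested genes in normal marrow (horizontal axis) and MLL-ENL leukemia (vertical axis), in CPM + 0.02 on log axes, with genes called and at least 2-fold higher in red and lower in blue. The cloud is wider below the diagonal, where 3675 genes lie, than above it, where 2105 lie.

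The largest rises were of genes nearly without counts in normal marrow. Hoxa11, a posterior homeobox gene (chromosome 6, from 52242105 to 52245810 in GRCm38.p6), had no count in the WT libraries and stood at 30.3, 32.6 and 32.9 CPM in the ME libraries (at least 594-fold higher, adjusted p = 1e-20). Heparanase 2 (Hpse2, chromosome 19, from 42786541 to 43388476), a relative of the heparan sulfate cleaving enzyme, gave 0.0499, 0 and 0 CPM in WT and 93.3, 97.3 and 99.8 CPM in ME (5400-fold higher, counting interval 969 to 213000, adjusted p = 7.2e-28). Pmp22, known as a protein of peripheral nerve myelin, gave 0, 0 and 0.0552 CPM in WT and 91.9, 84.1 and 86.7 CPM in ME (4890-fold higher, counting interval 877 to 193000, adjusted p = 1.9e-27). All of these were high in each ME library and at or near 0 in each WT library. The receptor phosphatase Ptprt, found mainly in brain, gave 0.0499, 0 and 0 against 48.5, 50.2 and 53.5 CPM (2830-fold higher, counting interval 507 to 112000, adjusted p = 2.9e-23). Dmrtb1, which acts as a transcription factor in the testis, gave 0.0499, 0.169 and 0.0552 against 168, 177 and 170.1 CPM (log2FC 10.81 ± 0.13, adjusted p = 4.1e-31, and log2FC 11.53 without WT replicate 2). Sgip1, an endocytic adaptor studied in neurons, gave 0.848, 1.3 and 0.994 against 339.8, 359 and 361 CPM (log2FC 8.40 ± 0.11, adjusted p = 2.8e-28). The groups did not overlap for any of the 3, which was a condition for naming them. Lower in level but also absent from WT were Azgp1, a secreted protein of lipid mobilisation (7.04, 6.07 and 8.05 CPM in ME, at least 130-fold higher), and Abcg8, a subunit of the sterol exporter (4.05, 5.12 and 6.1 CPM, at least 94-fold higher). Snhg11, a host of small nucleolar RNA, the nucleotidase Nt5c1a and the lectin Clec18a also rose, from 0.0188 ± 0.0326, 0.0166 ± 0.0288 and 0.0184 ± 0.0319 CPM to 33.8 ± 2.44, 11.4 ± 1.65 and 11.9 ± 1.02 CPM.

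At the opposite end stood genes at 0 in every ME library. Cd55, which shields cells from complement, gave 101, 90.3 and 99.6 CPM in WT and no count in ME (at least 1970-fold lower, adjusted p = 1.1e-23). S1pr1, the sphingosine phosphate receptor that lets lymphocytes leave tissues, gave 34.1, 36.3 and 37.8 CPM in WT and none in ME (at least 729-fold lower, adjusted p = 8e-20). Both stood well above 0 in each WT library. The IgM receptor Fcmr (at least 1760-fold lower), the receptor of the B cell survival factor BAFF, Tnfrsf13c (at least 995-fold lower), the glutamine transporter Slc38a5 (at least 750-fold lower), the fatty acid receptor Cd36 (at least 1210-fold lower), Tspo2 (at least 942-fold lower), Cldn13 (at least 1060-fold lower) and Ypel4 (at least 1850-fold lower) belong to the same set. Several of these are known from red cells or B cells, whose marker sums fell as given above.

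**Figure D2:**
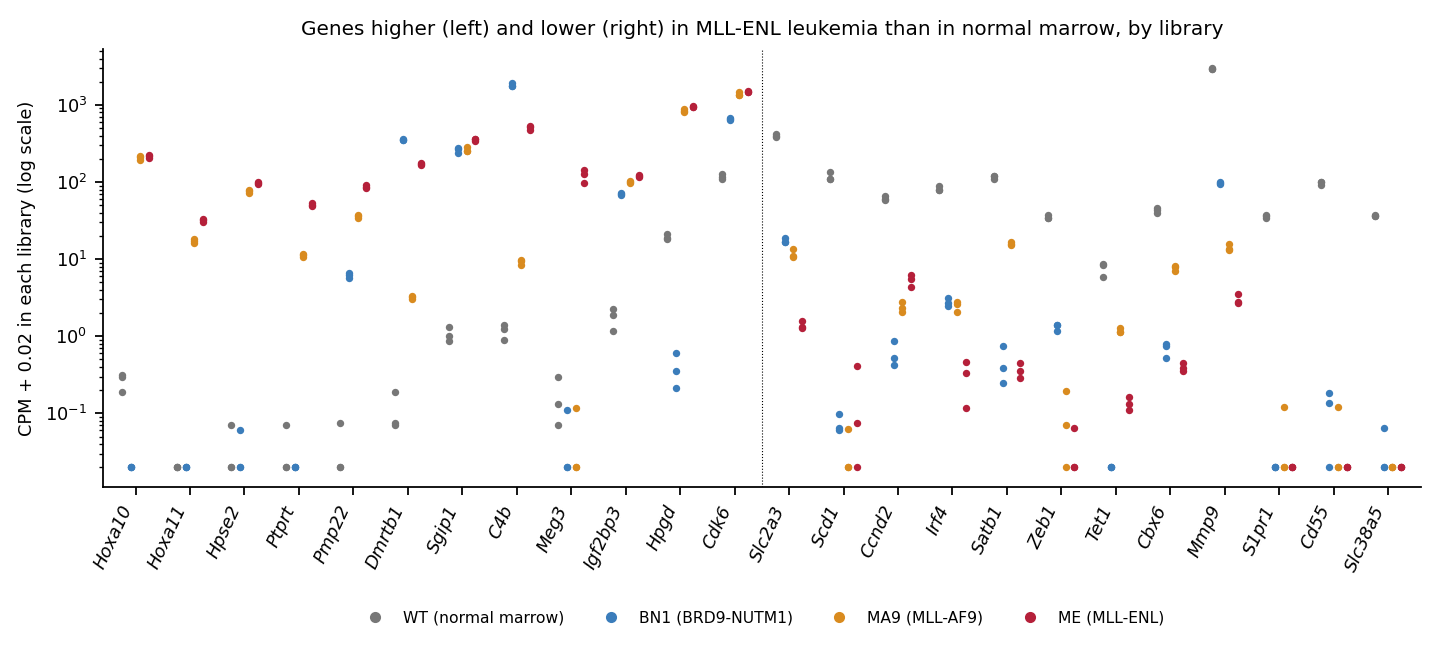
Level in each of the 12 libraries, in CPM + 0.02 on a log axis, of 12 genes higher and 12 genes lower in ME than in WT. ME points (red) sit apart from WT points (grey) for all 24 genes, while MA9 (orange) and BN1 (blue) points lie beside ME for some genes, such as Sgip1 and S1pr1, and far from it for others, such as C4b and Meg3.

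Transcription factor families moved in different directions. All 10 tested genes of the HoxA cluster rose, with a median log2 fold change of 5.16 against -0.01 over all genes. Hoxa9 (chromosome 6, from 52223097 to 52227370) gave 3.89, 3.72 and 3.53 CPM in WT and 283, 282 and 292 CPM in ME (log2FC 6.26 ± 0.07, adjusted p = 4.1e-31), and Hoxa10 gave 0.299, 0.169 and 0.276 against 222, 220.1 and 205 CPM (log2FC 9.72 ± 0.12, adjusted p = 5.9e-29). Of the other Hox clusters only 7 of 28 genes passed the filter. Hoxb4 fell from 15.5 ± 1.47 to 0.507 ± 0.37 CPM (log2FC -4.91 ± 0.22, adjusted p = 9.5e-16, and log2FC -5.50 without ME replicate 2), while Hoxb13, at the far posterior end, rose to 7.27 ± 0.456 CPM (405-fold higher, counting interval 72.3 to 16000, adjusted p = 4e-15). Homeobox genes outside the clusters had 11 of 30 tested members higher and 14 lower, so both directions were near the shares over all genes. Among the TALE cofactors, which bind DNA together with Hox proteins, Meis1 rose from 7.63, 7.73 and 6.07 to 37.3, 33.3 and 39.9 CPM (log2FC 2.36 ± 0.11, adjusted p = 4.4e-17) and Pbx3 rose from 6.29, 6.09 and 6.79 to 32.3, 33.4 and 33.8 CPM (log2FC 2.37 ± 0.09, adjusted p = 1.5e-19). No library of either group crossed over in these genes. Satb1, a chromatin organiser of lymphocytes, fell from 116 ± 6.36 to 0.346 ± 0.0821 CPM (log2FC -8.37 ± 0.14, adjusted p = 3.3e-27). Zeb1, a repressor known from epithelial to mesenchymal transition, fell from 35.3 ± 1.96 to 0.0151 ± 0.0261 CPM (2150-fold lower, counting interval 386 to 85000, adjusted p = 3.3e-22).

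Members of several smaller families moved apart. Gfi1 and Gfi1b are close relatives that recruit the demethylase LSD1 in the granulocyte and in the red cell and platelet line respectively. Gfi1 gave 29.4, 27.1 and 27.3 CPM in WT and 364, 372 and 386 CPM in ME (log2FC 3.74 ± 0.05, adjusted p = 6e-29), and Gfi1b gave 22.3, 28 and 26.7 against 0.772, 1.27 and 0.999 CPM (log2FC -4.65 ± 0.20, adjusted p = 2.9e-18). The groups did not overlap for either gene. Myc, the growth regulator, rose from 45.5, 51.1 and 48.3 to 161, 158 and 139 CPM (log2FC 1.66 ± 0.06, adjusted p = 1.5e-19). Its relative Mycl fell from 9.44 ± 0.681 to 0.0925 ± 0.16 CPM (log2FC -6.74 ± 0.41, adjusted p = 8.1e-14, and log2FC -6.12 without ME replicate 2 and -10.65 without ME replicate 3), and Mycn fell from 1.25 ± 0.277 CPM to 1 count over the ME group (76.2-fold lower, counting interval 13.2 to 3050). Myb, required by blood progenitors, rose from 202, 200.4 and 203 to 1164, 1143 and 1103 CPM (log2FC 2.50 ± 0.04, adjusted p = 1.2e-27), and Mybl2 rose from 82.6 ± 6.38 to 154 ± 2.94 CPM (log2FC 0.90 ± 0.05). In the C/EBP family, which drives granulocyte maturation, Cebpa (log2FC 1.30 ± 0.08) and Cebpb (log2FC 1.22 ± 0.21) rose, and Cebpe (log2FC -0.93 ± 0.06) and Cebpd (log2FC -0.83 ± 0.08), of later stages and of inflammation, fell. Among Runx factors Runx3 rose (log2FC 1.48 ± 0.05) and Runx2 fell (log2FC -0.76 ± 0.06). Of Sox genes Sox13 rose from 4.26 ± 0.568 to 50.9 ± 1.93 CPM (log2FC 3.57 ± 0.10), and Sox6 (log2FC -9.47 ± 0.21, -10.37 without ME replicate 1 and -8.84 without ME replicate 2), Sox12 (log2FC -3.52 ± 0.27) and Sox4 (log2FC -2.11 ± 0.10) fell. Among Ets factors Spib (6010-fold lower, counting interval 2060 to 29200), a B and dendritic cell gene, and Ets1 (log2FC -3.60 ± 0.06) fell, and Etv6 rose (log2FC 0.92 ± 0.05). The myeloid master regulator Spi1 gave 452, 493 and 482 CPM in WT and 468, 465 and 427 CPM in ME, with overlapping groups (log2FC -0.07 ± 0.05, adjusted p = 0.18, not called). Klf9 rose (log2FC 1.37 ± 0.09) while Klf2 (log2FC -2.42 ± 0.10), Klf3 (log2FC -1.80 ± 0.07), Klf5 (log2FC -2.05 ± 0.14) and Klf6 (log2FC -1.50 ± 0.06) fell.

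Nuclear receptors and clock genes showed no common direction. Nuclear receptors had 11 of 30 tested members higher and 13 lower. The retinoic acid receptors Rara and Rarg fell, from 131 ± 3.88 to 27.2 ± 4.46 CPM (log2FC -2.25 ± 0.08) and from 41 ± 1.98 to 12.7 ± 0.25 CPM (log2FC -1.69 ± 0.09), and their dimer partner Rxra rose (log2FC 0.72 ± 0.07). The thyroid hormone receptor Thrb (log2FC 3.72 ± 0.27) and the oestrogen receptor Esr1 (log2FC 1.18 ± 0.13) rose from low levels. In the circadian clock the repressor Per1 rose from 47.5, 57.7 and 52.5 to 152, 154 and 133 CPM (log2FC 1.48 ± 0.08, adjusted p = 1.3e-13), and the activator Arntl (log2FC -0.63 ± 0.09) and the output factors Tef (log2FC -1.15 ± 0.09) and Nr1d2 (log2FC -1.84 ± 0.13) fell. Genes reported as MLL fusion targets outside Hox had 12 of 23 tested members higher and 8 lower, a list drawn up with results of these data known. The fetal RNA-binding protein Igf2bp3 gave 1.15, 1.86 and 2.21 CPM in WT and 115, 119.6 and 125 CPM in ME (log2FC 6.12 ± 0.10, adjusted p = 1.2e-27). Hmga1 (log2FC 1.90 ± 0.04) and Hmga2 (log2FC 2.81 ± 0.16), chromatin architects of fetal cells, rose too. Bcl2 (log2FC -2.73 ± 0.09), Mef2c (log2FC -2.46 ± 0.08) and the receptor Flt3 (log2FC -1.75 ± 0.08), all of which are also lymphoid or dendritic cell genes, fell.

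The machinery of protein synthesis rose almost as a whole. Genes of nucleolar ribosome biogenesis, which process ribosomal RNA and assemble the subunits, had 64 of 66 tested members higher and 0 lower, with a median log2 fold change of 0.91. Dyskerin (Dkc1, chromosome X, from 75095854 to 75109776), which modifies ribosomal RNA and stabilises telomerase, gave 57.1, 50.2 and 56.3 CPM in WT and 210.2, 210.0 and 255 CPM in ME (log2FC 2.04 ± 0.08, adjusted p = 1.6e-16). Wdr12 rose from 17.9 ± 0.97 to 71.7 ± 6.55 CPM (log2FC 2.0 ± 0.07), followed by Rrs1, Rrp12 and Nop16 (log2FC 1.42 to 1.67). Dhx33, whose promoter is printed above, rose (log2FC 0.61 ± 0.07). Cytosolic ribosomal protein genes had 82 of 85 tested members higher and 2 lower, with a median of 0.78. Their rises were narrow in range, and those of Rpl32, Rps2, Rpl36 and Rpl10a were all of similar size (log2FC 1.06 to 1.21). The copy Rps4l had no count in ME (at least 132-fold lower). Mitochondrial ribosomal protein genes had 68 of 77 tested members higher and 1 lower (median 0.57), with Mrpl17 (log2FC 1.58 ± 0.06) in front and Mrpl52 lower (log2FC -0.58 ± 0.10). The tRNA synthetases, which charge tRNAs with amino acids, had 35 of 39 tested members higher and 2 lower (median 0.65), with Tars, Farsa, Eprs, Nars2 and Kars in front (log2FC 0.99 to 1.25). Translation factors had 55 of 68 tested members higher and 9 lower (median 0.61). Eif5a2, a tissue-restricted copy of the elongation factor eIF5A, fell from 7.21 ± 0.455 to 0.0925 ± 0.0906 CPM (log2FC -6.11 ± 0.40, -6.97 without ME replicate 2), and the haem-regulated kinase Eif2ak1 fell (log2FC -1.12 ± 0.05). The other scalings tried shifted all genes by a median of 0.0564 and -0.0539 on the log2 scale. Such shifts are too small to turn the sign of these medians.

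RNA handling followed in part. Nucleoporins and transport receptors had 41 of 58 tested members higher and 4 lower. The exportins parted, since Xpo5 (log2FC 1.23 ± 0.05), Xpot (log2FC 1.21 ± 0.05) and Xpo4 (log2FC 0.89 ± 0.07) rose and Xpo7, known from red cell maturation, fell from 344, 349 and 387 to 68, 71.8 and 69.7 CPM (log2FC -2.37 ± 0.06, adjusted p = 4.8e-24). RNA helicases had 35 of 59 tested members higher and 14 lower. Ddx18, Ddx21 and Ddx56, helicases of the nucleolus, rose (log2FC 1.11 to 1.18), and Ddx58 (RIG-I), Ddx60 and Mov10, which act against viruses, fell (log2FC -2.30 to -1.47). The antiviral helicase Ifih1 (MDA5) rose (log2FC 0.21 ± 0.07), a call that was lost without WT replicate 3. Splicing factors had 48 of 94 tested members higher and 19 lower. Rbm20, known from heart muscle splicing, rose from 0.404 ± 0.171 to 10.1 ± 0.989 CPM (log2FC 4.60 ± 0.22), and Rbm38 fell (log2FC -1.62 ± 0.07). The stem cell translation regulator Msi2 fell from 44.8 ± 1.7 to 16.6 ± 0.454 CPM (log2FC -1.43 ± 0.09).

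**Figure D3:**
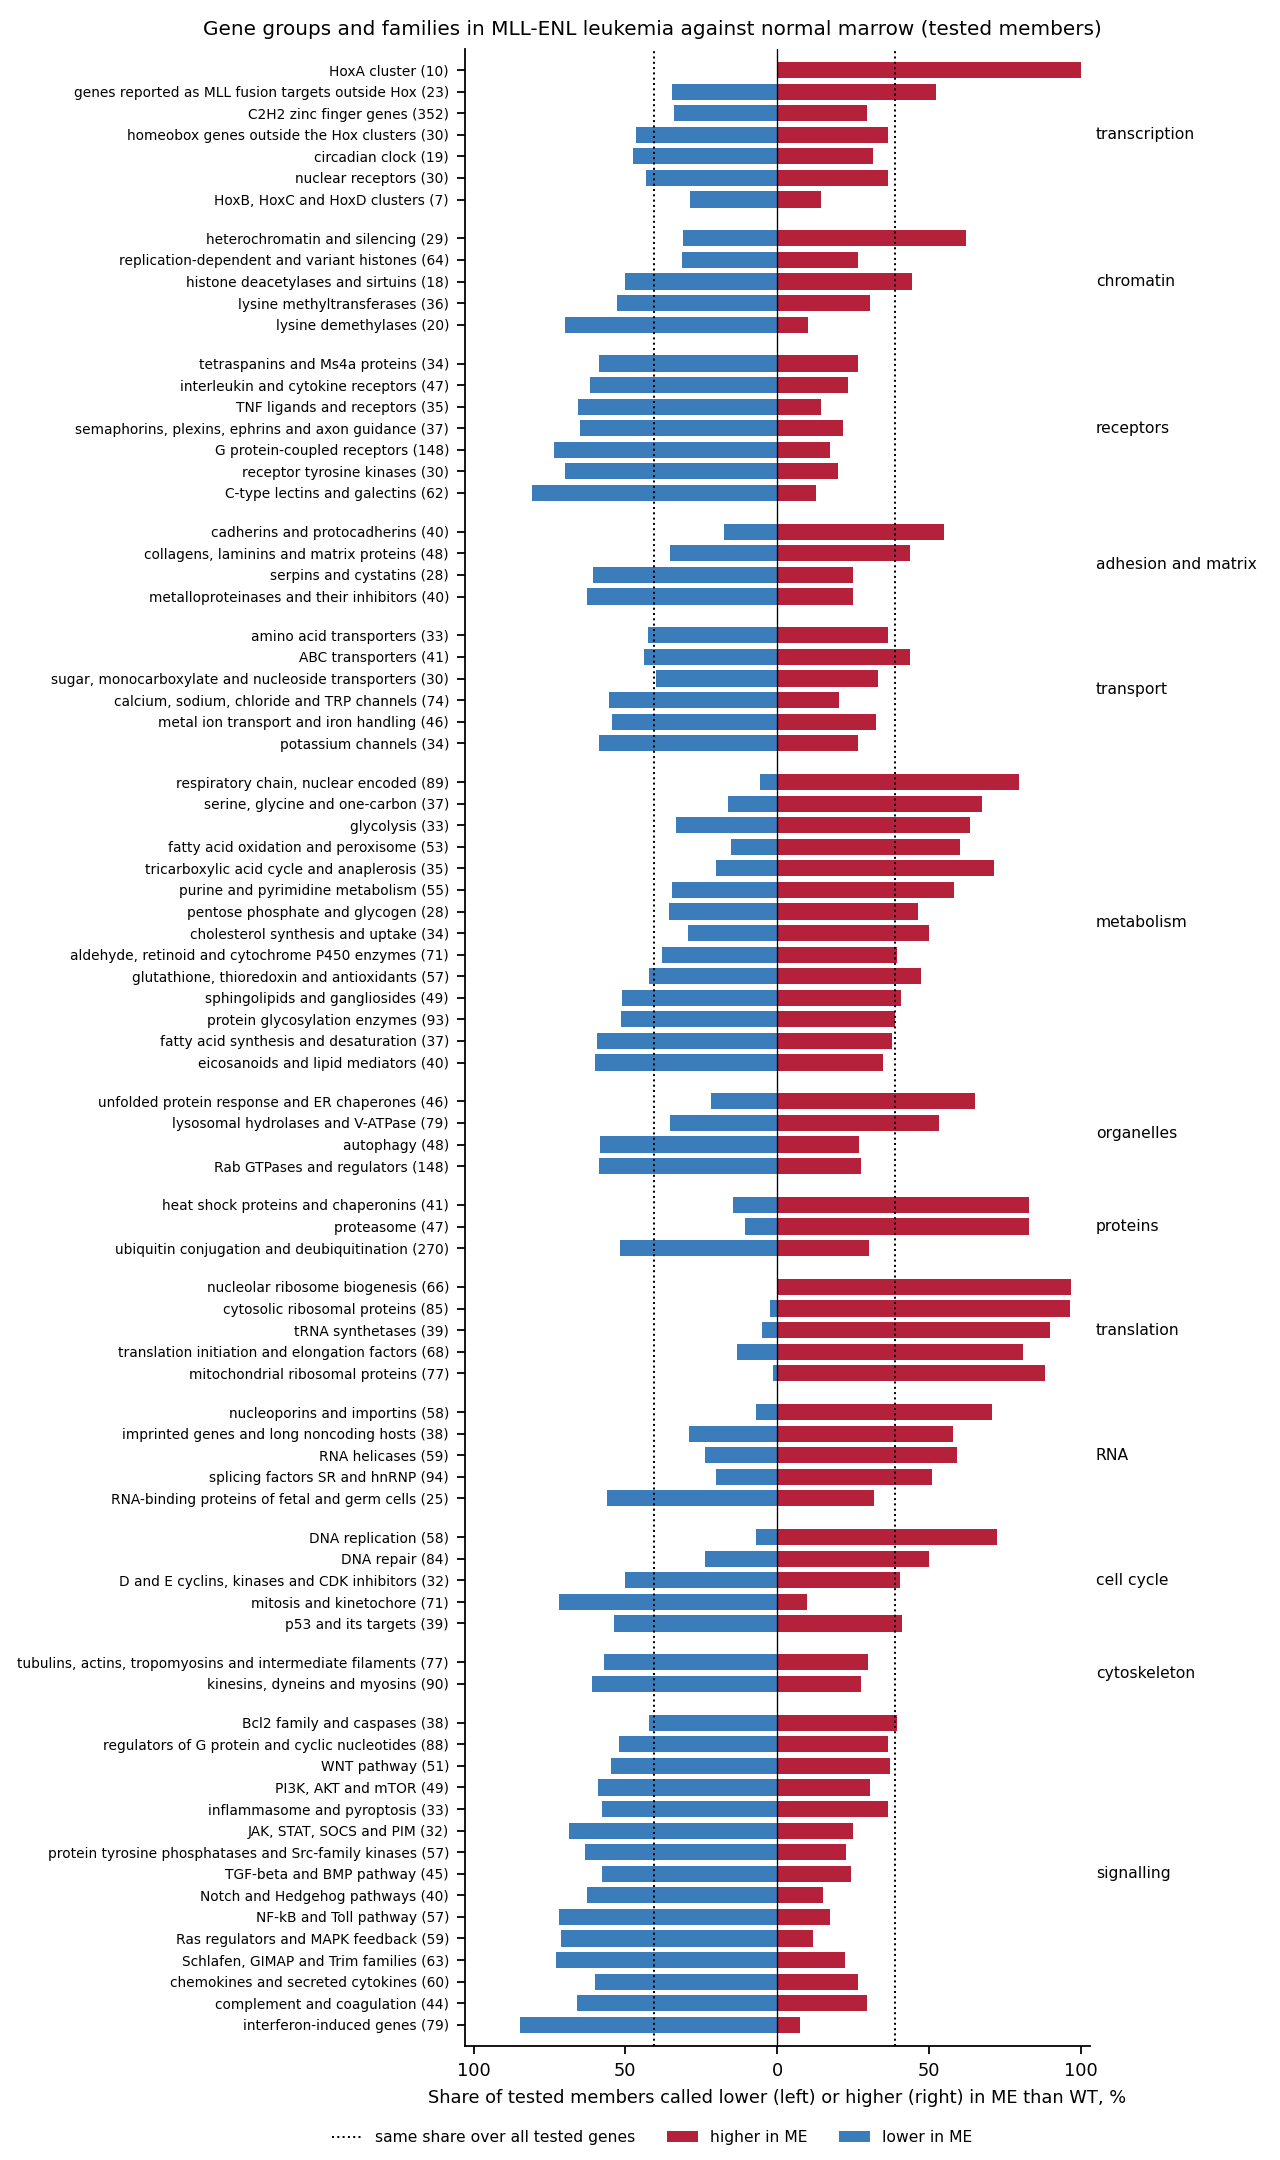
Share of the tested members of 82 gene groups called lower (blue, to the left) or higher (red, to the right) in ME than in WT, with the number tested in brackets and dotted lines at the shares over all tested genes (40.5% lower, 38.7% higher). Translation, protein folding and respiratory groups lie to the right, and receptor, signalling and interferon groups to the left.

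The cell cycle was split between replication and mitosis. DNA replication genes had 42 of 58 tested members higher and 4 lower, with a median of 0.29, whereas mitosis and kinetochore genes had 7 of 71 tested members higher and 51 lower, with a median of -0.42. The median deviation from WT, on the log2(CPM + 0.5) scale, was 0.273, 0.293 and 0.321 in the ME libraries for replication and -0.431, -0.445 and -0.306 for mitosis. Both groups kept their sign in each ME library. The polymerase subunits Pold2 (log2FC 0.98 ± 0.07) and Pole2 (log2FC 0.93 ± 0.07), the chromatin assembly factor Chaf1a (log2FC 0.90 ± 0.06) and the helicase component Cdc45 (log2FC 0.81 ± 0.06) rose. Orc3 rose (log2FC 0.44 ± 0.08), while Orc1, the subunit whose level follows the cell cycle, fell from 23.6, 22.7 and 24.4 to 8.93, 12.4 and 10.8 CPM (log2FC -1.14 ± 0.11, adjusted p = 1.6e-10). In mitosis the phosphatase Cdc25b, which activates CDK1, fell from 189, 195 and 201 to 16.2, 18.2 and 20.6 CPM (log2FC -3.42 ± 0.07, adjusted p = 8.3e-26). Ube2c, the ubiquitin enzyme of the anaphase-promoting complex, gave 157, 170.2 and 162 CPM in WT and 54.5, 49.7 and 69.1 CPM in ME (log2FC -1.50 ± 0.08, adjusted p = 5.2e-14). The kinetochore protein Cenpf and the spindle proteins Nusap1 and Aspm fell as well (log2FC -1.31 to -1.21), as did Cdc20 (log2FC -0.73 ± 0.06). Cdc25a, which acts at the start of replication, rose (log2FC 0.26 ± 0.06).

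Regulators of the restriction point did not move as a block. All 3 D cyclins fell. Ccnd1 went from 16.8, 14.7 and 14.7 to 1.54, 1.86 and 0.777 CPM (log2FC -3.43 ± 0.18, adjusted p = 2.9e-16), Ccnd2 from 65.6, 58.8 and 61.1 to 4.39, 5.43 and 6.27 CPM (log2FC -3.53 ± 0.12, adjusted p = 2e-20) and Ccnd3 from 577, 574 and 589 to 316, 302 and 291 CPM (log2FC -0.94 ± 0.04, adjusted p = 1.2e-17). Their partner Cdk6 (chromosome 5, from 3341004 to 3531008), a kinase highly used in blood cells, rose from 129, 118 and 111 to 1481, 1478 and 1534 CPM (log2FC 3.65 ± 0.05, adjusted p = 6.9e-29), and Cdk4 rose less (log2FC 0.72 ± 0.05). The lowest ME value of Cdk6 was thus above every WT value. Cyclin E1 (log2FC -0.72 ± 0.06) and cyclin A2 (log2FC -0.85 ± 0.06) fell. Cyclin E2 (Ccne2) rose (log2FC 0.24 ± 0.10, adjusted p = 0.035), but its adjusted p was 0.099 with relative log expression scaling and 0.11 with DESeq2, and the call was also lost in 4 of the 6 fits that left out 1 ME or WT library. The inhibitor Cdkn1c gave 0.599, 1.18 and 1.05 CPM in WT and 86.6, 82.8 and 80.1 CPM in ME (log2FC 6.47 ± 0.12, adjusted p = 2.6e-26). Cdkn2a, whose locus makes both p16 and p19ARF, gave 0, 0.0564 and 0.331 against 13.1, 14 and 14 CPM (log2FC 6.71 ± 0.29, adjusted p = 3.9e-18, and log2FC 6.10 without WT replicate 1 and 8.73 without WT replicate 3), and Cdkn1a rose (log2FC 1.37 ± 0.08). Another INK4 inhibitor, Cdkn2c, fell (log2FC -1.78 ± 0.07). Genes of p53 and its targets had 16 of 39 tested members higher and 21 lower, with the death gene Pmaip1 higher (log2FC 2.74 ± 0.07) and the growth arrest genes Btg2 (log2FC -4.03 ± 0.06) and Gadd45a (log2FC -3.66 ± 0.10) lower. DNA repair genes had 42 of 84 tested members higher and 20 lower. Mgmt, which removes alkyl groups from guanine, rose from 1.4, 1.86 and 1.21 to 18.1, 16.9 and 16.5 CPM (log2FC 3.53 ± 0.15, adjusted p = 4.6e-18), and the damage sensor Xpc rose (log2FC 1.62 ± 0.05), while the end joining ligase Lig4 fell (log2FC -1.75 ± 0.13). In the Bcl2 family Bcl2 and Bcl2l1 and Mcl1, which protect cells, fell (log2FC -2.73 to -1.35), and Bcl2l2, another protector, rose (log2FC 1.14 ± 0.09), as did the effector Bak1 (log2FC 1.04 ± 0.05).

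Heat shock proteins and chaperonins had 34 of 41 tested members higher and 6 lower (median 0.62), including Hsp90aa1 (log2FC 1.26 ± 0.05), Hspa8 (log2FC 0.95 ± 0.04) and the mitochondrial Hspa9 (log2FC 0.96 ± 0.04). Proteasome genes had 39 of 47 tested members higher and 5 lower. The members that fell included the interferon-inducible subunit Psmb9 (log2FC -0.42 ± 0.05) and the activator Psme1 (log2FC -0.22 ± 0.05), and those that rose included the standard subunit Psmb5 (log2FC 0.73 ± 0.05). The group of the endoplasmic reticulum had 30 of 46 tested members higher and 10 lower. Among the members that rose, protein disulfide isomerase (P4hb) gave 343, 358 and 343 CPM in WT and 1442, 1484 and 1530.0 CPM in ME (log2FC 2.09 ± 0.04, adjusted p = 4.5e-26), and calreticulin (Calr), also listed as a granule stage marker, gave 423, 435 and 438 against 1616, 1647 and 1694 CPM (log2FC 1.94 ± 0.04, adjusted p = 2.9e-25). Sdf2l1, Dnajc10 and Pdia6 were higher (log2FC 1.79 to 2.40). Among the members that fell, Ppp1r15a (GADD34), which restores translation after stress, gave 157, 199 and 213 CPM in WT and 6.71, 6.52 and 6.6 CPM in ME (log2FC -4.84 ± 0.10, adjusted p = 2.3e-23), Ddit3 (CHOP) fell (log2FC -1.71 ± 0.11), and the sensor kinase Eif2ak3 (PERK) fell (log2FC -0.56 ± 0.06). Ubiquitin conjugation, with 270 tested members, had 82 members higher and 140 lower. Autophagy genes had 13 of 48 tested members higher and 28 lower, with the cargo receptor Optn at 2.97 ± 0.649 against 57.4 ± 2.84 CPM (log2FC -4.28 ± 0.12). Lysosomal genes had 42 of 79 tested members higher and 28 lower. The granule protease Ctsg (log2FC 4.16 ± 0.04) and the glycosidases Gusb (log2FC 1.66 ± 0.05) and Neu1 (log2FC 1.41 ± 0.05) rose, and Ctse, an aspartic protease of red cell precursors among other cells, fell from 308 ± 17.2 to 2.05 ± 0.383 CPM (log2FC -7.21 ± 0.09).

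**Figure D4:**
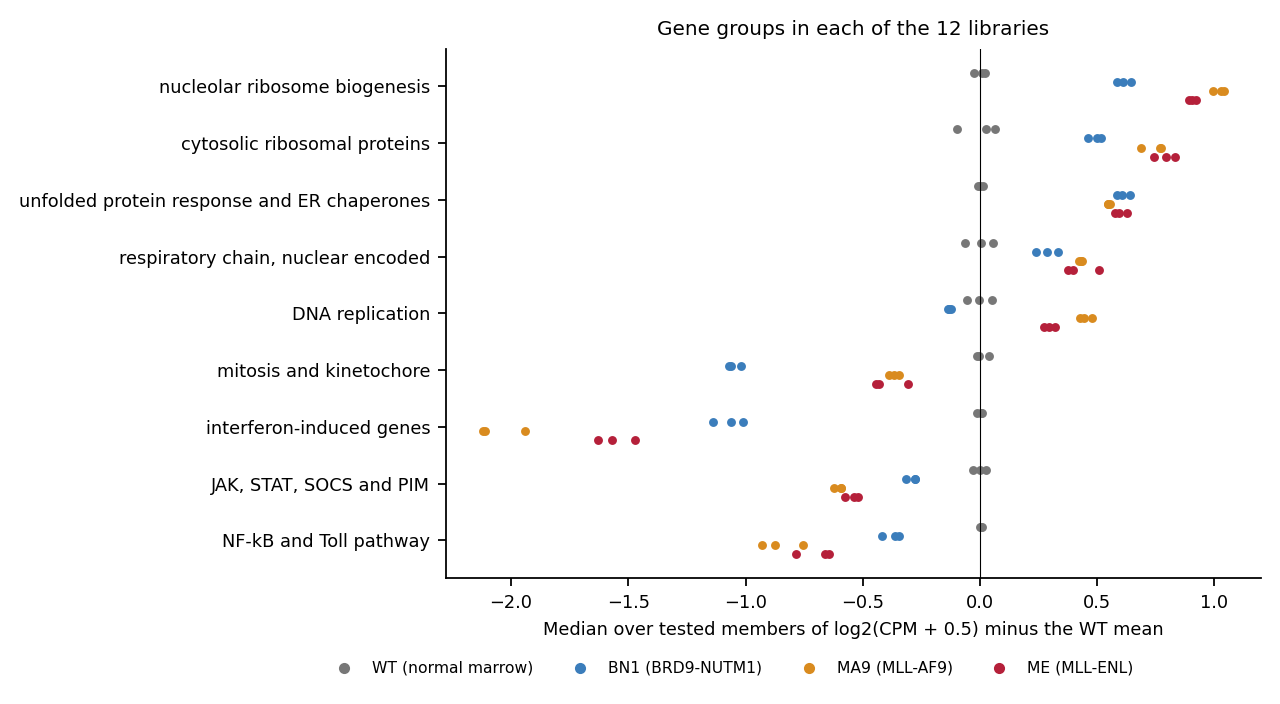
Median over the tested members of 9 gene groups of log2(CPM + 0.5) minus its WT mean, 1 point for each library. ME libraries (red) lie right of WT (grey) for ribosome biogenesis, ribosomal proteins, ER chaperones, respiration and replication, and left of it for mitosis, interferon, JAK-STAT and NF-kB genes.

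Nuclear-encoded respiratory chain genes had 71 of 89 tested members higher and 5 lower (median 0.43), with the complex I subunit Ndufb2 (log2FC 1.36 ± 0.08), the ATP synthase subunit Atp5g1 (log2FC 1.20 ± 0.06) and cytochrome c (Cycs, log2FC 1.0 ± 0.07) among the largest. The muscle-type subunit Cox6a2, also known from plasmacytoid dendritic cells, fell to 1 count over the ME group (681-fold lower, counting interval 122 to 27000). Tricarboxylic acid cycle genes had 25 of 35 tested members higher and 7 lower and fatty acid oxidation genes 32 of 53 tested members higher and 8 lower. Idh2 gave 61, 62.6 and 63.3 CPM in WT and 154, 152 and 157 CPM in ME (log2FC 1.31 ± 0.05, adjusted p = 7.8e-20), and the electron carrier Etfb gave 64.2, 69 and 69.5 against 331, 317 and 318 CPM (log2FC 2.25 ± 0.05, adjusted p = 2.2e-24). Both were higher in every ME library. The acetate enzymes Acss1 (log2FC -2.35 ± 0.07) and Acss2 (log2FC -1.14 ± 0.11) and the gluconeogenic Pck2 (log2FC -1.23 ± 0.06) fell.

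Glycolysis had 21 of 33 tested members higher and 11 lower, and several of its isozymes moved apart. Slc2a3 (GLUT3, chromosome 6, from 122727809 to 122802363), the high-affinity glucose transporter of neutrophils and neurons, gave 421, 391 and 387 CPM in WT and 1.3, 1.54 and 1.28 CPM in ME (log2FC -8.17 ± 0.10, adjusted p = 5.9e-31). Slc2a1 (GLUT1) gave 34.7, 35.7 and 35.2 against 29.1, 31.6 and 28.3 CPM (log2FC -0.24 ± 0.07), and Slc2a9, a urate carrier, rose (log2FC 1.69 ± 0.08). Per kilobase of exon, the level of Slc2a3 was 55.2 CPM in WT and 0.19 in ME, and that of Slc2a1 in ME was 8.46. Of the phosphofructokinases, which set the pace of glycolysis, the liver form Pfkl rose from 51.9, 54.3 and 59.4 to 161, 164 and 156 CPM (log2FC 1.54 ± 0.06, adjusted p = 1.5e-19), the platelet form Pfkp rose (log2FC 0.50 ± 0.05) and the muscle form Pfkm fell (log2FC -1.73 ± 0.11). Aldoa, Tpi1, Pgam1, Eno1 and Ldha rose (log2FC 0.45 to 1.48), whereas the red cell enzymes Pklr and Bpgm fell, to 1 count over the ME group (1690-fold lower, counting interval 303 to 66900) and from 154 ± 14.6 to 15.9 ± 1.44 CPM. Tigar, which lowers fructose bisphosphate, rose (log2FC 2.13 ± 0.09), and Pfkfb4, which raises it, fell (log2FC -3.16 ± 0.06). Of the 4 tested hexokinases, which trap glucose in the cell, Hk3 (log2FC 0.19 ± 0.04) and Hkdc1 (65.2-fold higher, counting interval 11.3 to 2610) rose and Hk1 (log2FC -0.13 ± 0.05) and Hk2 (log2FC -0.24 ± 0.06) fell. The call of Hk1 was lost with upper-quartile scaling (adjusted p = 0.129), with no count filter (0.0615) and without ME replicate 1 (0.104) or WT replicate 2 (0.0822). In the pentose phosphate and glycogen group the entry enzyme G6pdx (log2FC -0.93 ± 0.04) and the liver glycogen phosphorylase Pygl (log2FC -1.26 ± 0.04) fell, and H6pd of the endoplasmic reticulum rose (log2FC 1.60 ± 0.05).

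Nucleotide and folate enzymes also moved apart within families. IMP dehydrogenase catalyses the committed step to guanine nucleotides. Its form Impdh1 gave 41.1, 41.3 and 43.8 CPM in WT and 3.04, 2.72 and 3.33 CPM in ME (log2FC -3.80 ± 0.10, adjusted p = 2.1e-23), and Impdh2 gave 95.7, 98.5 and 99 against 207, 202 and 211 CPM (log2FC 1.08 ± 0.05, adjusted p = 4.3e-18). The groups did not overlap for either form. The pyrimidine enzymes Umps (log2FC 1.64 ± 0.06), Uck2 (log2FC 1.59 ± 0.05) and Ctps (log2FC 1.20 ± 0.06) rose, and the ribonucleotide reductase subunits Rrm2 (log2FC -0.56 ± 0.05) and Rrm2b (log2FC -1.37 ± 0.09) fell. The serine, glycine and folate group had 25 of 37 tested members higher and 6 lower. The glycine-forming enzymes Shmt1 (log2FC 1.96 ± 0.08) and Shmt2 (log2FC 1.30 ± 0.05) and the folate carrier Slc19a1 (log2FC 1.81 ± 0.09) rose. Phgdh, which opens serine synthesis from glucose, fell from 60.3, 65.7 and 64.7 to 13.7, 15.5 and 13.9 CPM (log2FC -2.14 ± 0.08, adjusted p = 1e-19). The branched-chain aminotransferases parted as well, the cytosolic Bcat1 falling from 3.34 ± 0.0422 CPM to 2 counts over the ME group (102-fold lower, counting interval 27.8 to 847) and the mitochondrial Bcat2 rising (log2FC 0.88 ± 0.06). Arginase 2 (Arg2) fell from 22.1 ± 0.763 to 0.244 ± 0.0648 CPM (log2FC -6.45 ± 0.23).

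**Figure D5:**
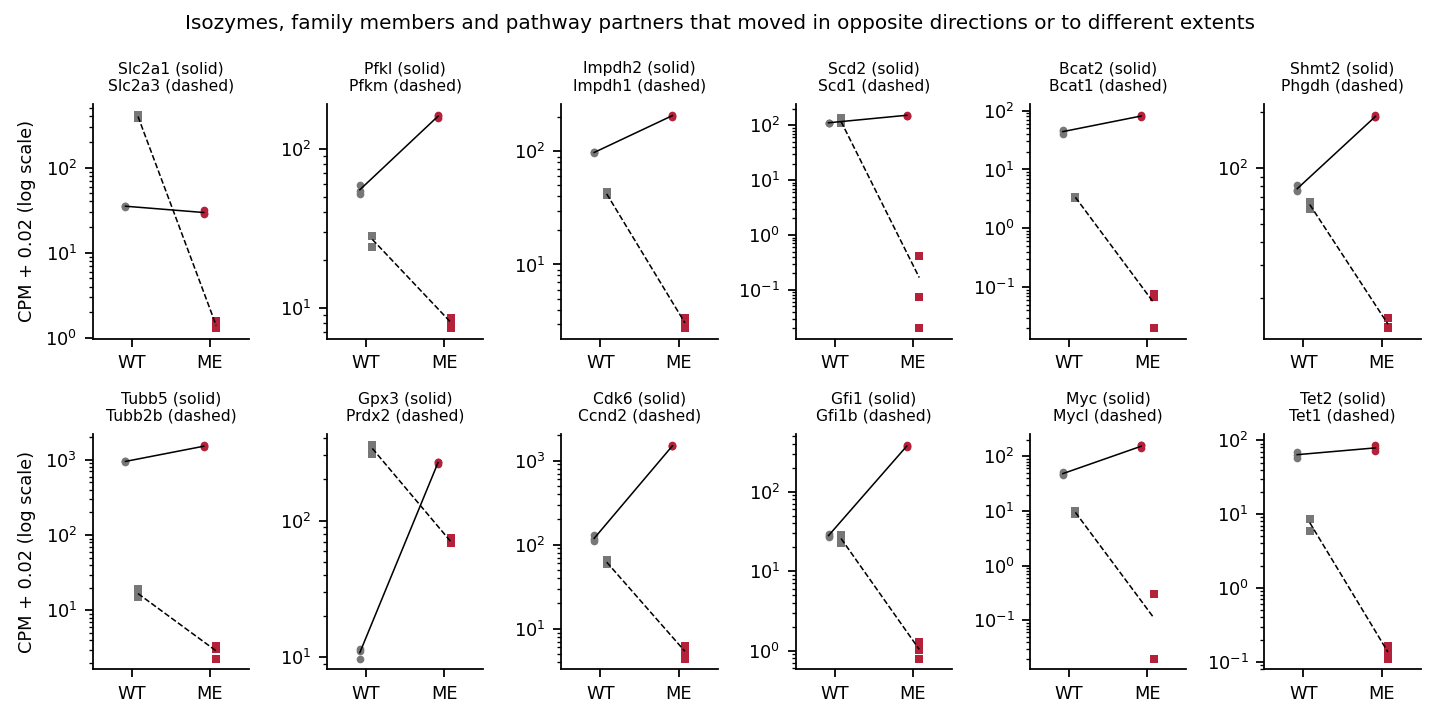
Level in each WT (grey) and ME (red) library, in CPM + 0.02 on log axes, of pairs of isozymes, family members or pathway partners, with lines through the means. The dashed gene fell in each of the 12 panels and the solid gene rose in all but that of Slc2a1, which fell slightly. Levels of different genes are not comparable here because lengths differ.

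Lipid enzymes changed member by member. Fatty acid synthesis and desaturation had 14 of 37 tested members higher and 22 lower. The desaturase Scd1 gave 111, 108 and 133 CPM in WT and 0.386, 0 and 0.0555 CPM in ME (log2FC -9.58 ± 0.21, adjusted p = 2.3e-21, and log2FC -11.89 without ME replicate 1 and -8.94 without ME replicate 2), while Scd2, which makes the same monounsaturated fatty acids, gave 112, 111 and 110.0 against 150.0, 157 and 150.3 CPM (log2FC 0.46 ± 0.04, adjusted p = 3.2e-10). Scd1 was near 0 in each ME library and Scd2 was not. The fatty acid desaturase family members Fads2 (log2FC -6.12 ± 0.30, -7.32 without ME replicate 1) and Fads3 (log2FC -7.32 ± 0.35, -8.53 without ME replicate 1 and -6.71 without ME replicate 2) fell. Fatty acid synthase (Fasn, log2FC 1.01 ± 0.07) and the carboxylase Acacb (log2FC 4.45 ± 0.20) rose. Cholesterol genes had 17 of 34 tested members higher and 10 lower. The late synthesis enzyme Dhcr7 (log2FC 1.24 ± 0.07) rose with Fdps (log2FC 1.31 ± 0.07), and Mvd (log2FC -1.03 ± 0.08) and Msmo1 (log2FC -0.81 ± 0.10) fell. The cholesterol exporters Abca1 (log2FC -4.96 ± 0.14) and Abcg1 (log2FC -1.43 ± 0.07) fell, from 41.2 ± 3.22 and 67.6 ± 2.16 CPM in WT to 1.32 ± 0.392 and 25.1 ± 1.35 CPM. Among ABC transporters of drugs and lipids Abcb4 (log2FC -9.60 ± 0.24, -10.21 without ME replicate 2), Abcg2 (log2FC -4.58 ± 0.19) and Abcb1b (log2FC -4.40 ± 0.19) fell, and Abcc2 (log2FC 2.56 ± 0.13) and Abcc4 (log2FC 1.15 ± 0.05) rose.

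In lipid mediators the catabolic enzyme stood out. Hpgd (chromosome 8, from 56294552 to 56321046), the dehydrogenase that inactivates prostaglandins, gave 18.4, 18.7 and 21.2 CPM in WT and 933, 931 and 960.4 CPM in ME (log2FC 5.60 ± 0.07, adjusted p = 8.7e-31). Ptgr1, the reductase of the next step, gave 41.5, 45.7 and 43.1 against 172, 181 and 189.9 CPM (log2FC 2.06 ± 0.05, adjusted p = 4.7e-23), and cyclooxygenase 1 (Ptgs1), which starts the synthesis, gave 69.2, 76 and 73.7 against 299, 294 and 303 CPM (log2FC 2.03 ± 0.05, adjusted p = 3.2e-23). Enzymes of both synthesis and breakdown were thus among the genes that rose. Alox15, a lipoxygenase of eosinophils and macrophages, fell (log2FC -4.36 ± 0.24), as did the endocannabinoid hydrolases Faah (log2FC -6.93 ± 0.35, -7.58 without ME replicate 1 and -6.31 without ME replicate 2) and Mgll (log2FC -3.37 ± 0.11). Sphingolipid genes had 20 of 49 tested members higher and 25 lower. The ganglioside enzyme St3gal5, which makes GM3, fell from 265, 263 and 262 to 7.33, 7.24 and 6.71 CPM (log2FC -5.21 ± 0.07, adjusted p = 1.9e-29), and B4galnt1, which makes GM2 and GD2, rose from 228, 235 and 243 to 609, 626 and 629 CPM (log2FC 1.40 ± 0.04, adjusted p = 2.3e-21). The sphingosine kinase Sphk1 fell (485-fold lower, counting interval 166 to 2360) and the sphingomyelin synthase Sgms2 rose (log2FC 2.07 ± 0.06). In protein glycosylation the galactosyltransferase B4galt6 rose from 29.8 ± 1.79 to 457 ± 22.9 CPM (log2FC 3.94 ± 0.06) and the core fucosyltransferase Fut8 rose (log2FC 1.74 ± 0.06), while the sialyltransferase St6gal1 (log2FC -6.05 ± 0.19) and the sulfotransferase Chst3 (2640-fold lower, counting interval 903 to 12800) fell.

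Antioxidant genes had 27 of 57 tested members higher and 24 lower, and the median of this group changed sign with the scaling. Plasma-type glutathione peroxidase (Gpx3) gave 11.5, 11.1 and 9.77 CPM in WT and 268, 261 and 268 CPM in ME (log2FC 4.62 ± 0.06, adjusted p = 7.2e-30). Several glutathione transferases of the mu class, which join glutathione to toxic compounds, rose, with Gstm1 at 72.2, 67.4 and 69.3 against 609.9, 612 and 688 CPM (log2FC 3.19 ± 0.05, adjusted p = 1.1e-27), Gstm2 at log2FC 6.12 ± 0.22 and Gstm4 at log2FC 2.69 ± 0.09. Gstm5, named after its values were seen, stood at 8.19 ± 0.619 against 9.24 ± 2.13 CPM and was not called (log2FC -0.17 ± 0.16, adjusted p = 0.31), though it passed without WT replicate 1 (log2FC -0.35, adjusted p = 0.0405). The sequences of this class are similar, so reads may have been shared between them. Peroxiredoxin 2, abundant in red cells, fell (log2FC -2.26 ± 0.05), as did the cystine carrier Slc7a11 (log2FC -3.07 ± 0.20), the quinone reductase Nqo1 (log2FC -5.35 ± 0.34) and the glutathione hydrolases Ggt1 (log2FC -4.23 ± 0.27) and Ggt5 (log2FC -5.21 ± 0.17). Genes of metal ion transport and iron handling had 15 of 46 tested members higher and 25 lower. The metal-binding metallothioneins rose, Mt1 from 9.48, 11.7 and 12.6 to 157, 155 and 186 CPM (log2FC 3.89 ± 0.08, adjusted p = 4.7e-24) and Mt2 too (log2FC 2.01 ± 0.13). Of the zinc carriers Slc39a7 (log2FC 0.87 ± 0.04) and Slc30a5 (log2FC 0.85 ± 0.06) rose, and Slc30a4 fell (409-fold lower, counting interval 113 to 3390). Retinol saturase (Retsat) rose from 8.02 ± 0.199 to 79.8 ± 5.05 CPM (log2FC 3.31 ± 0.07), and the retinaldehyde dehydrogenase Aldh1a1, a red cell and stem cell gene among others, fell from 43.1 ± 4.18 CPM to 3 counts over the ME group (871-fold lower, counting interval 298 to 4230).

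Receptors at the cell surface were mostly lower. Of 278 G protein-coupled receptors in the list 148 were tested, with 26 higher and 109 lower and a median of -1.70. C-type lectins and galectins had 8 of 62 tested members higher and 50 lower (median -2.57), cytokine receptors 11 of 47 tested members higher and 29 lower, and receptor tyrosine kinases 6 of 30 tested members higher and 21 lower. The falls included lymphoid genes with 0 to 3 counts over the ME group, such as the chemokine receptor Ccr7 (at least 530-fold lower), Cd40 (287-fold lower, counting interval 98 to 1400) and Il2rb (4770-fold lower, counting interval 856 to 188000). A set of receptors rose against this trend. The adhesion receptor Adgrb1, which binds phosphatidylserine on dying cells, gave 0.299, 1.24 and 0.166 CPM in WT and 46.8, 47.2 and 38.1 CPM in ME (log2FC 6.30 ± 0.25, adjusted p = 5.1e-13, and log2FC 7.52 without WT replicate 2). The R-spondin receptors Lgr6 and Lgr4, which strengthen WNT signals, gave 0.0499, 0.0564 and 0.0552 against 15.4, 18.4 and 16.9 CPM (315-fold higher, counting interval 108 to 1530) and 3.84, 2.59 and 2.71 against 15.3, 16.1 and 18.4 CPM (log2FC 2.43 ± 0.15), and the ubiquitin ligase Rnf43, which opposes them, rose as well (log2FC 2.54 ± 0.11). Their relative Lgr5 had no count in ME (at least 176-fold lower). Kit, the receptor of stem cell factor, rose from 56.1, 50.7 and 50.0 to 147, 150.1 and 164 CPM (log2FC 1.55 ± 0.06, adjusted p = 6.1e-20). Erbb3 (log2FC 2.89 ± 0.10), Flt1 (log2FC 2.81 ± 0.15), Epha7 (log2FC 3.97 ± 0.18) and Mertk (log2FC 1.93 ± 0.17) rose, while the Mertk relative Axl fell from 23.4 ± 0.535 to 0.487 ± 0.159 CPM (log2FC -5.60 ± 0.20). Among cytokine receptors Ifngr1 (log2FC 1.70 ± 0.05), Il3ra (log2FC 1.51 ± 0.06), Il15ra (log2FC 2.11 ± 0.08) and Il1rl2 (log2FC 2.62 ± 0.09) rose. Clec11a, a growth factor of blood and bone progenitors, gave 0.698, 0.451 and 0.828 CPM in WT and 107, 102 and 101 CPM in ME (log2FC 7.28 ± 0.11, adjusted p = 3.8e-28). The galactose lectin Mgl2 rose from 5.03 ± 0.0991 to 185 ± 16.6 CPM (log2FC 5.20 ± 0.08), and the scavenger lectin Colec12 rose from 0.549 ± 0.133 to 34.8 ± 2.02 CPM (log2FC 5.96 ± 0.13).

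Adhesion and matrix groups moved in different directions. Matrix genes had 21 of 48 tested members higher and 17 lower, and serpins and cystatins, inhibitors of proteases, had 7 of 28 tested members higher and 17 lower. Only 40 of 124 cadherins, protocadherins and their partners passed the filter, with 22 higher and 7 lower and a median of 1.52, or 0.99 with genes at their bound. The p120 catenin Ctnnd1, which holds cadherins at the membrane, gave 29.3, 30.1 and 28.6 CPM in WT and 104, 110.2 and 106 CPM in ME (log2FC 1.86 ± 0.05, adjusted p = 2.3e-22), and Pcdh7 rose from 1.54 ± 0.458 to 22.3 ± 1.66 CPM (log2FC 3.85 ± 0.16). E-cadherin (Cdh1), present in red cell precursors, fell from 19.9 ± 1.49 to 0.891 ± 0.274 CPM (log2FC -4.46 ± 0.19). Among matrix genes the elastic fibre protein Emilin1 rose from 58.2, 67 and 55.2 to 281, 295 and 258 CPM (log2FC 2.21 ± 0.08, adjusted p = 4.5e-15) and the basement membrane protein Nid2 from 0.599, 0.451 and 0.442 to 29.8, 34.9 and 35 CPM (log2FC 6.04 ± 0.17, adjusted p = 1.5e-22). Thrombospondin 1 (Thbs1) fell from 157, 153 and 153 to 14.8, 18.9 and 16.6 CPM (log2FC -3.20 ± 0.07, adjusted p = 1.5e-24). Metalloproteinases had 10 of 40 tested members higher and 25 lower. Mmp9, a gelatinase of late neutrophil granules, fell from 2965 ± 6.75 to 2.99 ± 0.442 CPM (log2FC -9.96 ± 0.08). It is itself a member of the neutrophil marker sum that fell. The macrophage elastase Mmp12 (log2FC 6.54 ± 0.40, 8.12 without WT replicate 2) and Mmp19 (log2FC 3.55 ± 0.10) rose.

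Channels and carriers moved in both directions. Calcium, sodium, chloride and TRP channels had 15 of 74 tested members higher and 41 lower. Of the voltage-gated calcium channels, Cacna1b, the N-type channel of synapses, gave 0.998, 0.733 and 0.828 CPM in WT and 60.0, 56 and 51.5 CPM in ME (log2FC 6.01 ± 0.12, adjusted p = 7.6e-26), and Cacna1f, the retinal L-type channel, gave 0.798, 1.8 and 0.773 against 48.4, 43 and 47.4 CPM (log2FC 5.37 ± 0.16, adjusted p = 1.1e-21). The T-type channels moved the other way. Cacna1i (at least 435-fold lower) and Cacna1h (at least 106-fold lower) had no count in ME, and Cacna1g fell (log2FC -6.79 ± 0.38, -11.14 without ME replicate 1 and -6.16 without ME replicate 2), as did the R-type Cacna1e (log2FC -7.10 ± 0.25). The potassium channel Kcnk12 (log2FC 2.78 ± 0.12) and the channel-binding calcium sensor Kcnip3 (log2FC 4.14 ± 0.09) rose, and Kcnn4, the calcium-activated channel of red cells and lymphocytes, fell (log2FC -2.27 ± 0.08). Amino acid carriers had 12 of 33 tested members higher and 14 lower. The cationic amino acid carrier Slc7a2 gave 1.25, 0.902 and 0.939 against 26.4, 27.6 and 30.0 CPM (log2FC 4.75 ± 0.16, adjusted p = 7.1e-21), and the lysosomal proton-coupled carriers Slc36a1 (log2FC 1.84 ± 0.05) and Slc36a4 (log2FC 2.05 ± 0.06) rose together, while the glycine carrier Slc6a9 (log2FC -8.97 ± 0.24, -10.27 without ME replicate 1 and -8.34 without ME replicate 2) and Slc43a1 (log2FC -6.46 ± 0.13) fell. The nucleoside carrier Slc28a2 rose (log2FC 1.95 ± 0.05).

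Signalling genes were lower as a rule. Interferon-induced genes had 6 of 79 tested members higher and 67 lower, with a median of -1.62, and the median deviation was -1.47, -1.57 and -1.63 in the ME libraries. Rsad2 (viperin), which blocks viral replication and whose promoter is printed above, gave 240.3, 242 and 245 CPM in WT and 5.36, 6.52 and 7.32 CPM in ME (log2FC -5.25 ± 0.08, adjusted p = 1.2e-28). Ifit3 gave 32.9, 30.5 and 32.3 against 1.79, 1.31 and 0.943 CPM (log2FC -4.54 ± 0.15, adjusted p = 1.3e-20). The groups were far apart for both. Irf4, a regulator of lymphoid and dendritic cells, fell from 82.7 ± 5.25 to 0.286 ± 0.176 CPM (log2FC -8.18 ± 0.17), and Ifitm1 (log2FC -6.69 ± 0.14) and Gbp4 (log2FC -7.24 ± 0.22) fell. The 6 members that rose were Oas1g, Ifi27, Gbp3, Oas1a, Ifih1 and Oas1h (log2FC 0.21 to 2.08). Oas1h was named after its values were seen, and the adjusted p of Ifih1 was 0.071 without WT replicate 3. JAK, STAT, SOCS and PIM genes had 8 of 32 tested members higher and 22 lower. The feedback inhibitors Socs2 (log2FC -5.27 ± 0.44), Cish (log2FC -2.96 ± 0.17) and Socs3 (log2FC -2.83 ± 0.14) fell, and Stat4 (log2FC 0.66 ± 0.07) and Jak3 (log2FC 0.65 ± 0.07) rose. NF-kB and Toll genes had 10 of 57 tested members higher and 41 lower, with the myeloid scaffold Card9 (log2FC 0.73 ± 0.05) and the kinase Ikbke (log2FC 1.53 ± 0.06) higher. In the inflammasome group (12 of 33 tested members higher and 19 lower) sensors of bacterial proteins of the Naip family rose, Naip6 from 0.293 ± 0.235 to 36.5 ± 2.48 CPM (log2FC 6.96 ± 0.20, 7.81 without WT replicate 2) and Naip2 too (log2FC 1.08 ± 0.05). Naip genes are close copies of each other, so the split of reads between them is uncertain.

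Growth factor pathways downstream of receptors were also lower. Ras regulators and MAPK feedback genes had 7 of 59 tested members higher and 42 lower. The exchange factors Rasgrp1 (log2FC -8.71 ± 0.34, -12.84 without ME replicate 1 and -8.08 without ME replicate 2) and Rasgrp3 (log2FC -5.63 ± 0.23), of lymphocytes, fell, and the neuronal type exchange factor Rasgrf2 (3.24, 3.27 and 2.49 against 21.8, 22.4 and 21.8 CPM, log2FC 2.87 ± 0.13) rose. PI3K, AKT and mTOR genes had 15 of 49 tested members higher and 29 lower. The phosphatase Inpp4b had no count in ME (at least 351-fold lower), and the mTOR inhibitor Deptor rose (log2FC 1.41 ± 0.09). The pseudokinases Trib1 (log2FC -5.48 ± 0.16) and Trib2 (2010-fold lower, counting interval 361 to 79600), which target C/EBP alpha for breakdown, fell. Notch and Hedgehog genes had 6 of 40 tested members higher and 25 lower and WNT genes 19 of 51 tested members higher and 28 lower, the lymphoid effectors Lef1 (at least 655-fold lower) and Tcf7 (log2FC -7.25 ± 0.19) being lower. In the TGF-beta group Bambi, a decoy receptor, rose (log2FC 2.86 ± 0.12), and Acvrl1 (log2FC -5.46 ± 0.10) and Id3 (log2FC -8.05 ± 0.38, -11.64 without ME replicate 1 and -7.44 without ME replicate 2) fell. Among secreted factors Vegfa gave 25, 20.1 and 23 CPM in WT and 99.9, 102 and 98.4 CPM in ME (log2FC 2.14 ± 0.06, adjusted p = 8.6e-22) and Mif gave 48.9, 51.3 and 49.8 against 197, 197 and 196 CPM (log2FC 1.98 ± 0.06, adjusted p = 2.1e-22), and Il1b (log2FC -7.92 ± 0.18), Ccl5 (log2FC -8.59 ± 0.22) and Csf1 (log2FC -2.87 ± 0.14) fell.

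Complement and coagulation genes, usually made by the liver, had 13 of 44 tested members higher and 29 lower, and some members rose far. Complement C4b (chromosome 17, from 34728139 to 34743902) gave 1.4, 1.24 and 0.884 CPM in WT and 514, 531 and 472 CPM in ME (log2FC 8.74 ± 0.09, adjusted p = 7.3e-32). Its near-identical neighbour C4a gave 1.6, 1.13 and 1.05 against 16.2, 13.8 and 16.5 CPM (log2FC 3.60 ± 0.16, adjusted p = 8.8e-18), so reads may have been shared between the copies. Coagulation factor VII (F7) gave 1.1, 2.03 and 0.939 against 134, 122 and 113 CPM (log2FC 6.51 ± 0.12, adjusted p = 3.6e-25). Factor X (F10), which factor VII activates, gave 53.5, 57.4 and 52.7 against 364, 388 and 379 CPM (log2FC 2.79 ± 0.05, adjusted p = 6e-27), and complement factor B (Cfb) rose from 5.52 ± 0.433 to 63.6 ± 3.04 CPM (log2FC 3.52 ± 0.09). All 3 ME libraries were above all 3 WT libraries for each of these genes, which were picked as the largest rises of the group. The complement receptor Cr2 (591-fold lower, counting interval 202 to 2870), Itgax (log2FC -6.69 ± 0.19) and the C1q chain C1qa (log2FC -5.14 ± 0.41, -7.49 without ME replicate 1) fell.

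Cytoskeletal filament genes had 23 of 77 tested members higher and 44 lower and motor genes 25 of 90 tested members higher and 55 lower. Beta tubulin Tubb5 rose (log2FC 0.67 ± 0.04), and Tubb2a (log2FC -1.43 ± 0.10) and Tubb2b (log2FC -2.52 ± 0.15) fell. Of the nonmuscle myosins Myh9 (log2FC -0.99 ± 0.06) and Myh10 (log2FC -6.06 ± 0.23) fell. The unconventional myosin Myo7a, of sensory hair cells, rose from 41.5, 44.7 and 42 to 243, 240.0 and 222 CPM (log2FC 2.46 ± 0.05, adjusted p = 4.6e-25). The endothelial type GTPase Rhoj gave 0.249, 0.507 and 0.221 CPM in WT and 44.7, 48.3 and 47.5 CPM in ME (log2FC 7.16 ± 0.17, adjusted p = 5.8e-24), and the exchange factor Arhgef28 gave 0.798, 0.846 and 0.994 against 37.4, 40.4 and 35.8 CPM (log2FC 5.43 ± 0.14, adjusted p = 2.9e-23). Rnd3 fell (log2FC -7.14 ± 0.25, -8.47 without ME replicate 1) and its relative Rnd1 rose (log2FC 2.12 ± 0.09).

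Lysine demethylases had 2 of 20 tested members higher and 14 lower (median -0.37). Kdm7a (log2FC -1.96 ± 0.06) and the H3 lysine 27 demethylases Kdm6b (log2FC -1.71 ± 0.06) and Kdm6a (log2FC -0.64 ± 0.06) fell, and Kdm2b, which recruits Polycomb complexes to CpG islands, rose (log2FC 0.53 ± 0.05). Lysine methyltransferases had 11 of 36 tested members higher and 19 lower. Kmt2c (log2FC -0.85 ± 0.06) and Kmt2d (log2FC -0.68 ± 0.12), relatives of MLL, fell, and Smyd2 (log2FC 1.52 ± 0.12) and Smyd3 (log2FC 1.61 ± 0.11) rose. Among Polycomb CBX subunits, which read methylated lysine 27, Cbx6 fell from 39.7, 45.9 and 43.7 to 0.434, 0.362 and 0.333 CPM (log2FC -6.81 ± 0.17, adjusted p = 1.5e-23), and Cbx7 (log2FC -2.75 ± 0.17) and Cbx2 (log2FC -1.77 ± 0.21) fell. The DNA demethylase Tet1 fell from 8.58, 8.46 and 5.91 to 0.145, 0.0906 and 0.111 CPM (log2FC -5.98 ± 0.34, adjusted p = 1.5e-14), Tet2 rose (log2FC 0.31 ± 0.07), and Tet3 stood at 129.9 ± 16.6 against 143 ± 4.06 CPM (log2FC -0.14 ± 0.07, adjusted p = 0.058, not called). Heterochromatin and silencing genes had 18 of 29 tested members higher and 9 lower, with the corepressor Trim28 (log2FC 0.83 ± 0.04) and the germ-line methylation cofactor Dnmt3l (log2FC 3.06 ± 0.17) higher. Histone genes had 17 of 64 tested members higher and 20 lower. Most replication-dependent histone messages lack a poly(A) tail, so the selection of polyadenylated RNA limits what these values measure.

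Imprinted genes and noncoding hosts had 22 of 38 tested members higher and 11 lower. The maternally expressed noncoding RNAs Meg3 and Rian lie in the same imprinted domain. Meg3 (chromosome 12, from 109540996 to 109571729) gave 0.0499, 0.113 and 0.276 CPM in WT and 145, 126 and 98.1 CPM in ME (log2FC 9.69 ± 0.28, adjusted p = 4.9e-15, and log2FC 10.50 without WT replicate 3), and Rian gave 0.20, 0.113 and 0.221 against 145, 137 and 148 CPM (log2FC 9.60 ± 0.16, adjusted p = 7.2e-28). Both were near 0 in normal marrow and high in each ME library. Igf2r, another maternally expressed gene, rose (log2FC 1.41 ± 0.06), and the nuclear noncoding RNA Malat1 fell from 341, 297 and 374 to 75.8, 177 and 67.3 CPM (log2FC -1.65 ± 0.32, adjusted p = 0.0013).

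The leukemias were compared directly, with no WT library in the contrast. Against MLL-AF9 cells 6208 genes were called (40.5%), 3039 higher (19.8%) and 3169 lower (20.7%), and 1907 (12.4%) by at least 2-fold (809 higher, 5.28%, and 1098 lower, 7.16%). Against BRD9-NUTM1 cells 9911 were called (64.6%), 4993 higher (32.6%) and 4918 lower (32.1%), and 3392 (22.1%) by at least 2-fold. The median absolute log2 fold change was 0.228 against MA9 and 0.443 against BN1.

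The gene groups stood differently against the 2 other leukemias. Nucleolar ribosome biogenesis had 1 of 66 tested members higher and 25 lower in ME than in MA9, and 45 higher and 7 lower than in BN1. DNA replication had 1 of 58 higher and 32 lower than in MA9, with medians of -0.18 and, against BN1, 0.39 (43 higher and 7 lower). Mitosis genes had 9 of 71 higher and 23 lower than in MA9, and 64 higher and 3 lower than in BN1 (median 0.68). Interferon-induced genes were higher in ME than in MA9 for 46 of 79 tested members and lower for 9, and against BN1 higher for 15 and lower for 45. Ifit3, for instance, gave 0.907, 0.952 and 1.22 CPM in the MA9 and 4.29, 3.97 and 3.95 CPM in the BN1 libraries. The MA9 libraries held Y-linked transcripts, with Ddx3y at 54.3 to 59.4 CPM, and the ME libraries almost none, with Ddx3y at 0.111 to 0.241 CPM. The part of sex in this comparison was not tested.

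Single genes set MLL-ENL apart from MLL-AF9. Rian gave 0.101, 0 and 0.0976 CPM in the MA9 libraries and was higher in ME (log2FC 11.02 ± 0.17, adjusted p = 2e-27, and log2FC 10.41 without MA9 replicate 2). Meg3 gave 0, 0 and 0.0976 CPM in MA9 and was higher in ME as well (3940-fold higher, counting interval 1090 to 32500, adjusted p = 2e-14). Nrap, a muscle anchoring protein, gave 45.1, 47.9 and 40.8 CPM in ME and 0.151, 0.26 and 0.439 CPM in MA9 (log2FC 7.27 ± 0.19, adjusted p = 7.4e-22). Capn11, a testis calpain, gave 10.6, 8.78 and 9.43 CPM in ME and 0, 0.0433 and 0 CPM in MA9 (608-fold higher, counting interval 109 to 24100, adjusted p = 1.4e-17). The groups did not overlap for these genes, which for Rian, Nrap and Capn11 was a condition for naming them. Sestd1 (938-fold higher, counting interval 168 to 37100), Cpne8 (log2FC 7.39 ± 0.27), Eps8l1 (324-fold higher, counting interval 89.3 to 2680) and Thbs1 (log2FC 6.32 ± 0.19) were higher in ME too. C4b was higher in ME than in MA9 (9.37, 8.26 and 9.76 CPM, log2FC 5.79 ± 0.07, adjusted p = 5.1e-30) and lower than in BN1 (1785, 1770.3 and 1904 CPM, log2FC -1.85 ± 0.05, adjusted p = 4e-22). Lower in ME than in MA9 were the transcription cofactor Eya1 (0, 0 and 0 CPM in ME against 80.6, 84 and 76.6 CPM, at least 1630-fold lower, adjusted p = 5.2e-22), the retinol receptor Stra6 (0, 0 and 0 against 65.2, 57.8 and 65.7 CPM, at least 1270-fold lower, adjusted p = 5.8e-20), the phosphatase inhibitor Ppp1r14c (at least 599-fold lower), Lhfp (at least 620-fold lower) and the Ikaros family factor Ikzf2 (log2FC -10.10 ± 0.24, -9.49 without ME replicate 2 and -11.38 without ME replicate 3). Meis1 was also lower in ME than in MA9 (134, 139.8 and 127 CPM, log2FC -1.86 ± 0.08, adjusted p = 1e-16), and so was Satb1, which stood at 15.8 ± 0.635 CPM in MA9 (log2FC -5.50 ± 0.19, adjusted p = 1.2e-19).

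Against BRD9-NUTM1 the HoxA genes separated the leukemias, with no count of Hoxa10 in BN1 (at least 5220-fold higher) and 1 count of Hoxa9 over the group (20700-fold higher, counting interval 3710 to 816000). Hpgd gave 0.33, 0.586 and 0.192 CPM in BN1 and was higher in ME (log2FC 11.33 ± 0.11, adjusted p = 7.7e-33). Ptprt had no count in BN1 (at least 1220-fold higher). Dach1, a transcription cofactor, gave 0, 0 and 0 CPM in BN1 and 37.6, 36.9 and 40.2 CPM in ME (at least 921-fold higher, adjusted p = 1.6e-22). On the other side stood the HoxB genes and a macrophage receptor. Hoxb6 gave 24.8, 24.7 and 26.9 CPM in BN1 and 0, 0 and 0 CPM in ME (at least 518-fold lower, adjusted p = 1.9e-18), Hoxb8 was lower in ME as well (1710-fold lower, counting interval 307 to 67600), and the scavenger receptor Marco gave 69.8, 87.4 and 82.7 CPM in BN1 and 0, 0.0453 and 0 CPM in ME (4860-fold lower, counting interval 872 to 192000, adjusted p = 1.9e-22).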

How the data were processed

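Sorted CD45.2-positive bone marrow cells were profiled by stranded RNA sequencing after poly(A) selection, per the labels' protocols. The authors deposited a table of raw read counts per gene, 1 column for each of 12 libraries (4 groups of 3). HISAT2, featureCounts, DESeq2 and mm10 are named in the submitters' processing notes. The annotation, the versions and the use of strand in counting were not given in the sources used here. Reads of a gene and an antisense partner may therefore not be told apart. Library totals of 18292636 to 25732049 counts set the precision.

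Gene groups, markers and named genes were chosen with earlier results of these data known. LOC101056014 and Lars2 were removed before library totals were taken. The counts were filtered with filterByExpr, scaled by TMM and tested with edgeR 4.0.16 in R 4.3.3 (quasi-likelihood test, robust, all 12 libraries in 1 fit, no covariate, residual df 8), with Benjamini-Hochberg adjustment over 15332 genes at a threshold of 0.05. This test was checked on simulated data in which few genes were changed, unlike the data here. That check could not show how the scaling behaves where most genes differ. No 2 libraries of a group agreed within sampling noise. CPM used TMM-scaled totals. Gene groups were described by counts and medians, with no set test. Named genes were the 15 largest changes in each direction against WT (groups not overlapping, mean of at least 5 CPM in the higher group), with predicted, pseudogene and antigen receptor symbols and all listed markers passed over, up to 5 called members in each direction from each gene group, all members of small families compared side by side, and the 8 largest in each direction against each other leukemia by the first rule. Kmt2a, Mllt1, Hoxa9, Meis1 and Ptprc were added. Positions and promoters came from RefSeq GRCm38.p6, which matches mm10; 14344 of the 15332 genes (93.6%) matched a position and 11231 a promoter. The alternatives were other scalings and filters, limma-voom (limma 3.58.1), DESeq2 1.42.0, fits of only the compared groups, a 2-fold minimum, the replicate number as a block and leaving out each library.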

Additional observations from a re-analysis of the deposited data

Results flagged for a closer look

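LOC101056014 and Lars2, which were left out of all comparisons, were high in 1 leukemia library only. LOC101056014 stood at 14560 CPM of all counts in ME replicate 3, against 453 to 465 CPM in the other ME libraries. Lars2, the mitochondrial leucyl-tRNA synthetase, stood at 3451 CPM in that library, against 139 to 142 CPM in the others. With both genes kept in the table, 12152 genes were called in ME against WT.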

How the results depend on the processing

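With a minimum change of 2-fold in the test, 4695 genes were called against WT (1561 higher and 3134 lower), 1173 against MA9 and 2307 against BN1, and 74 of the 372 genes given against WT were not called. Of the 83 gene groups, 68 had a count of called members that moved by over 1.5 times under that minimum. Upper-quartile scaling raised the median of all genes by 0.0564 on the log2 scale (6309 higher and 5906 lower against WT) and relative log expression scaling shifted it by -0.0539 (5601 higher and 6519 lower). Leaving out 1 library gave 11915 to 12154 genes against WT, 5520 to 5906 against MA9 and 9352 to 9668 against BN1. Correlations of deviations were -0.0713, 0.0356 and -0.029 between same-numbered ME and WT libraries. Between differently numbered ones they ran from -0.0813 to 0.103. Groups of 3 libraries are too small for these values to show whether libraries shared a batch. With the replicate number as a block 12013, 5990 and 9748 genes were called against WT, MA9 and BN1, and the block changed the call of none of the genes given. Apart from the 2-fold minimum, the genes given that lost a call under the alternatives run were Ccne2, Hk1 and Ifih1, as stated above. Spi1 and Tet3, not called, passed the threshold with relative log expression scaling (adjusted p = 0.022 and 0.011) and DESeq2 (0.024 and 0.012), and Tet3 also with a filter of 1 CPM (0.044) and without ME replicate 2 (0.0037). The cause was not tested. The median over antioxidant genes was 0.02 and turned to -0.04 with relative log expression scaling and with DESeq2, and to -0.03 without ME replicate 3. That over amino acid carriers (0.03) turned to -0.03 with relative log expression scaling, and that over matrix genes (0.10) to -0.09 without ME replicate 1. Genes with 3 or fewer counts in a group are limited by depth.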

Other observations

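The traces of Y-linked RNA in the leukemia libraries were below those of MLL-AF9 but above the normal marrow. Ddx3y gave 5, 4 and 2 counts in the ME libraries and no count in the WT and BN1 libraries. Eif2s3y gave 4, 5 and 2 counts in ME and none in WT and BN1. Xist stood at 893, 932 and 905 CPM in ME, at 892, 756 and 776 CPM in WT and at 331, 374 and 325 CPM in MA9.

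Of promoters of the mitosis genes, 43 of 58 (74.1%) held the inverted CCAAT word ATTGG on either strand, against 38.4% of tested genes and 37.9% of all promoters, and 31 held it together with the cell cycle word. Matches of these 2 words overlapped in 40 of all promoters. The sterol word TCACNCCAC was found in 1 of 24 promoters of cholesterol genes (4.17%), against 1.16% of tested genes and 1.22% of all promoters.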
